A study of Mus musculus with 36 samples.

Results

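Liver RNA of Mlkl Adi-KO mice was compared with that of WT mice on a normal chow diet (NCD), in 8 of the 36 libraries of the series, chosen by tissue, diet and genotype as the labels give them. There were 4 Mlkl Adi-KO mice (numbers 166, 179, 197 and 199) and 4 WT mice (165, 180, 182 and 183), with 1 library per mouse. All were males on a C57BL/6J background, 16 weeks old when the diets began and kept on chow for 16 weeks. Both genotypes carried loxP-flanked Mlkl alleles, the Mlkl Adi-KO mice also carried the Adipo-Cre transgene, which acts in mature adipocytes, and the WT mice were littermates without Cre. Liver cells are therefore not the intended target of the deletion, and the comparison asks how the liver of these animals differed when Mlkl was removed from fat cells. For values side by side, 5 Mlkl Adi-KO and 5 WT mice of the same series, of the same sex and starting age, had received a high-fat diet (HFD) over 16 weeks.

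MLKL is the pseudokinase that carries out necroptosis: once phosphorylated by RIPK3, itself activated with RIPK1, it assembles at membranes and breaks them. Hepatocytes express little RIPK3, so necroptosis in liver is usually discussed for other cells. Adipose tissue and liver are linked through fatty acids and secreted adipokines, and the liver answers them with its programs of lipid synthesis, lipid oxidation and glucose output. A processed pseudogene is a copy of a messenger RNA that was inserted back into the genome without introns, and it can share most of its sequence with the gene it came from.

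Levels are fragments counted per gene, scaled to gene length and library size (FPKM), and log2 fold changes are Mlkl Adi-KO over WT on the log2(FPKM + 1) scale, on which low genes appear to change less than they do. Reads on genes ranged from 21567225 to 25530574 over the 8 libraries. Unless another test is named, p-values across genes are from limma, and a gene passed where its Benjamini-Hochberg adjusted p was under 0.05. Bulk RNA cannot tell fewer cells of a type from less RNA per cell. The libraries had the profile of liver: Alb, which encodes serum albumin, was between 35925 and 47072 FPKM, and Adipoq, the adipocyte hormone adiponectin, did not exceed 0.25 FPKM in any of the 8.

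The library of WT mouse 182 stood apart from the other 7. Its correlation with them across genes was 0.951 to 0.956, against 0.981 to 0.989 among the other 21 pairs of libraries, and it lay alone on the first principal component, which held 42.7% of the variance. Of the 25 tested genes known to be higher in male than in female mouse liver, 23 were below the range of the other 7 mice in mouse 182, and all 14 tested female-biased genes were above it, beside 3553 below and 2714 above among all 13193 genes tested. Mup3, a major urinary protein, was at 509 FPKM in mouse 182 and at 5563 to 8688 in the others, and the fatty acid elongase Elovl3 was at 2.93 FPKM against 235 to 414. Cyp2a4, a female-biased cytochrome P450, was at 267 FPKM in mouse 182 and at 0.227 to 4.85 in the others. The Y-linked gene Ddx3y was nevertheless at 17.0 FPKM in mouse 182 and at 17.99 to 19.98 in the rest, and Xist did not exceed 0.0168 FPKM in any of the 8. Collagen genes and proliferation genes were also above the others in mouse 182, with Col1a1 at 17.3 FPKM against 0.760 to 2.18. Of 19 tested proliferation genes, 18 were above the range of the other 7, beside the same 2714 of 13193 genes. The filter for testing used a mean over all 8 mice, so a gene could be tested because it was high in mouse 182. Without that mouse, 14 proliferation genes and 10 female-biased genes were tested. The counts of genes above the range are therefore partly set by the filter. In visceral white adipose tissue (visWAT) of the same animals, Mlkl was at 1.96 to 2.49 FPKM in the 4 Mlkl Adi-KO mice and at 3.91 to 5.11 in the WT mice 165, 180 and 183. It was at 2.29 FPKM in the fat library labelled WT 182, on the Mlkl Adi-KO side. The tests were therefore run with and without the library labelled WT 182.

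**Figure D1:**
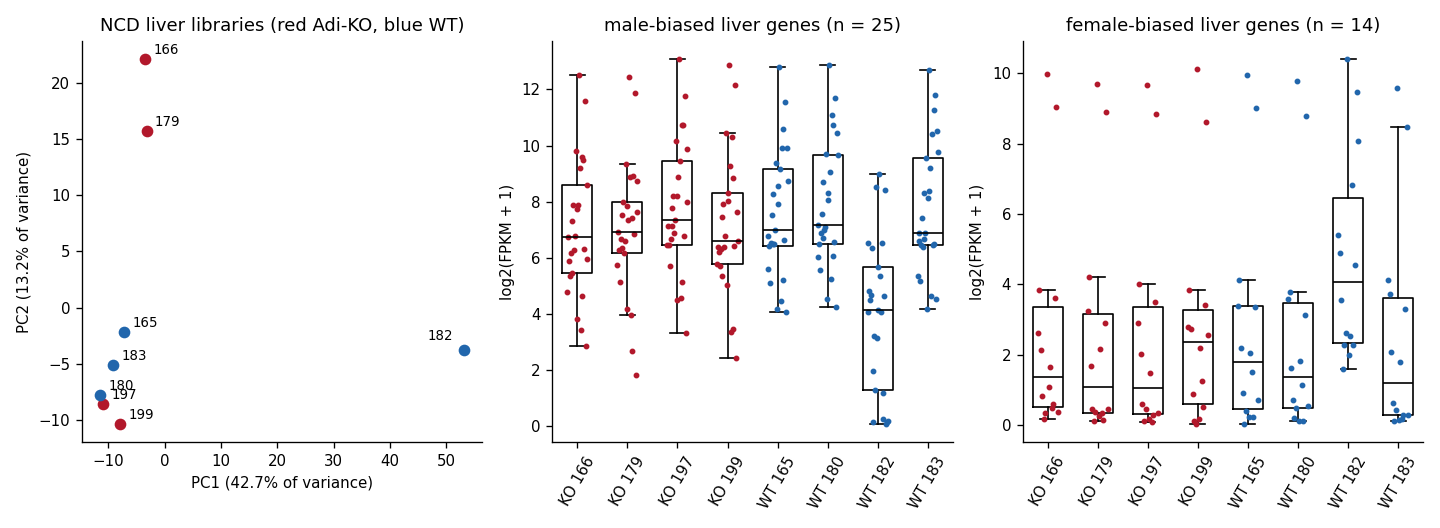
Left, scores of the 8 NCD liver libraries on principal components 1 and 2 of log2(FPKM + 1), with mouse numbers. Middle and right, log2(FPKM + 1) of the tested male-biased (n = 25) and female-biased (n = 14) liver genes in each mouse, with boxes for the quartiles and points for genes. WT mouse 182 has the lowest box of male-biased and the highest box of female-biased genes.

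Mlkl itself overlapped between the genotypes in liver. It was at 2.39, 3.94, 2.23 and 1.62 FPKM in the Mlkl Adi-KO mice and at 2.44, 2.18, 4.19 (mouse 182) and 2.89 in the WT mice. The groups overlapped, and the log2 fold change was -0.16 ± 0.21 (SE; limma adjusted p = 0.996), or -0.02 ± 0.20 without mouse 182 (adjusted p = 0.997).

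Genotype accounted for a share (R2) of 0.143 of the sum of squares across genes (one-sided exact permutation p = 0.429 over the 35 ways to divide the 8 mice into groups of 4). Without mouse 182 the share was 0.194 (one-sided exact permutation p = 0.2).

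Across 13193 tested genes, 1 passed the threshold (0.00758% of those tested), the processed pseudogene Gm5540, which was lower in Mlkl Adi-KO liver. At an unadjusted p under 0.05 there were 574 genes (4.35%), 287 higher and 287 lower. Without mouse 182, 7 of 13070 genes passed (0.0536%), 4 higher and 3 lower, and 740 had an unadjusted p under 0.05 (5.66%). Of these 7, 5 are predicted loci or pseudogenes, 1 is a microRNA precursor gene and 1 is a known protein-coding gene, Kng1. DESeq2 on reads recovered from the same values called 21 genes with all 8 mice (0.159%) and 53 without mouse 182 (0.406%), and edgeR called 1 (0.00758%) and 5 (0.0383%).

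Gm5540, on chromosome 3, was the gene with the clearest difference on NCD, and it was named after its values were seen, since predicted genes fall outside the rule for naming. A match of its 1848 bases to mouse transcripts gave Acsf2, a mitochondrial acyl-CoA synthetase gene on chromosome 11, with 99.0% identity and 18 mismatches. The copies that passed without mouse 182 matched other liver enzymes: Gm7049 on chromosome 13 matched Me1 (malic enzyme, which makes NADPH for lipid synthesis) with 98.6% identity over 1713 aligned bases, and Gm11868 on chromosome 4 matched Cyb5r4 (a cytochrome b5 reductase) with 98.0% over 1432. The stretches below, of 120 bases each, show how few positions tell a copy from its gene, on which the counting of reads between them rests. They are read from GRCm39 on the strand of the transcript, lie in a coding exon of the gene, and carry in capitals the bases at which copy and gene differ.
Gm5540, chr3:65301384-65301503 (+): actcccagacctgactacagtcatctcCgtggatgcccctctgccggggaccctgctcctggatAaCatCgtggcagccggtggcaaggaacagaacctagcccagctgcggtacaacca
Acsf2, chr11:94462143-94462262 (-): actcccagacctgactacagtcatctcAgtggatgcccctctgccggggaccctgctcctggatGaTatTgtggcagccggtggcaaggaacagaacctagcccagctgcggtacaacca
Gm7049, chr13:62961351-62961470 (+): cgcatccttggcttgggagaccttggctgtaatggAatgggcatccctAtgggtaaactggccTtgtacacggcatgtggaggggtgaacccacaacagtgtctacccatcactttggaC
Me1, chr9:86532939-86533058 (-): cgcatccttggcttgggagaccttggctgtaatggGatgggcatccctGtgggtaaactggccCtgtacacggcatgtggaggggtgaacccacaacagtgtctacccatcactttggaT
Gm11868, chr4:18844302-18844421 (-): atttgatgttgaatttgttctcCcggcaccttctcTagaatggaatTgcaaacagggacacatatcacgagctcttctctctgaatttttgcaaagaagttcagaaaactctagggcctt
Cyb5r4, chr9:86948702-86948821 (+): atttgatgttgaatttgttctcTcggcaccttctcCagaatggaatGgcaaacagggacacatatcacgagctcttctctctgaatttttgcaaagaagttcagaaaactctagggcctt

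Gm5540 was at 0.507, 0.684, 0.587 and 0.482 FPKM in the Mlkl Adi-KO mice and at 12.6, 10.9, 24.0 (mouse 182) and 11.8 in the WT mice. No Mlkl Adi-KO mouse came near a WT mouse, and mouse 182 was the highest of all. The log2 fold change was -3.27 ± 0.22 (SE; limma adjusted p = 0.00222), and -3.03 ± 0.08 without mouse 182 (adjusted p = 4.97e-06). On HFD the order was the opposite in all but 1 mouse, with 8.27 to 10.01 FPKM in the 5 Mlkl Adi-KO mice, 0.332 to 0.756 in 4 WT mice and 9.84 in WT mouse 162. The difference between the genotype effects on the diets was 5.42 ± 0.63 on the log2 scale (limma interaction, adjusted p = 0.00217), and 5.17 ± 0.64 without mouse 182 (adjusted p = 0.00765). In reads, 0.218% to 0.357% of those on Gm5540 and Acsf2 together fell on the copy in Mlkl Adi-KO mice on NCD, against 5.74% to 6.33% in the WT mice 165, 180 and 183 and 14.2% in mouse 182. Acsf2 itself was at 103 to 119 FPKM in Mlkl Adi-KO and at 78.5 to 101 in WT mice, without overlap (log2 fold change 0.25 ± 0.09, unadjusted p = 0.0261), and did not pass the threshold (adjusted p = 0.996). How reads that match both were assigned, and whether counting used strand, are not given in the sources used here, so levels of copy and gene are uncertain, and whether reads of one were counted on the other was not tested.

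Gm7049 was at 4.25, 4.397, 3.53 and 3.36 FPKM in the Mlkl Adi-KO mice and at 0.141, 0.250, 2.45 (mouse 182) and 0.198 in the WT mice. The groups did not overlap, but mouse 182 was closer to the Mlkl Adi-KO mice than to the other WT mice, and the adjusted p was 0.836 with it and 0.000304 without it (log2 fold change 2.03 ± 0.10). Gm11868 showed the same arrangement, with 1.31, 2.06, 1.58 and 1.33 FPKM against 0.0818, 0.0361, 1.04 (mouse 182) and 0.0382, and passed without mouse 182 (1.28 ± 0.12, adjusted p = 0.0144) but not with it (1.04 ± 0.23, adjusted p = 0.836). Cyb5r4, the gene it matches, was lower where the copy was higher, at 3.45 to 4.03 FPKM in Mlkl Adi-KO mice, 3.45 in mouse 182 and 4.59 to 5.13 in the other WT mice, and did not pass (adjusted p = 0.633 without mouse 182). Me1 was at 158 to 222 FPKM in Mlkl Adi-KO and 132 to 248 in WT mice, and overlapped. On HFD both copies were higher in the Mlkl Adi-KO mice and passed the threshold, Gm7049 with 0.607 to 1.27 against 0 to 0.0957 FPKM (adjusted p = 0.00996) and Gm11868 with 1.18 to 2.07 against 0 to 0.180 (adjusted p = 0.00129).

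Me1 and Cyb5r4 start 1.97 and 1.53 Mb before Zfp949 on chromosome 9, and a further locus near it passed without mouse 182. That locus is Gm37614, of 210 bases, at chr9:88708657-88708866, whose sequence matched 7 protein-coding genes over at least 90% of its length, so that its reads are hard to assign. It was at 2.36, 4.10, 2.45 and 3.96 FPKM in the Mlkl Adi-KO mice, at 0 in the WT mice 165, 180 and 183 and at 6.43 in mouse 182, from 9 to 15 reads, 0 reads and 28 reads. Without mouse 182 the adjusted p was 0.00686, and with it 0.996. Zfp949, a zinc finger gene 0.279 Mb before it, was at 3.61, 3.96, 4.13 and 4.18 FPKM in Mlkl Adi-KO mice against 2.16, 2.20, 4.98 (mouse 182) and 2.57. Mouse 182 was above every other mouse, the other WT mice were below all Mlkl Adi-KO mice, and the log2 fold change without mouse 182 was 0.59 ± 0.08 (adjusted p = 0.0821). Bckdhb, which encodes part of the enzyme complex that breaks down branched-chain keto acids and starts 4.62 Mb before Zfp949, followed the same order with 55.3 to 66.3 FPKM, 46.3 to 48.0 in the WT mice 165, 180 and 183 and 79.0 in mouse 182 (0.31 ± 0.07 without mouse 182, adjusted p = 0.628). Gsta4, a glutathione transferase 10.3 Mb before Zfp949, had 89.1 to 120 FPKM, 68.1 to 72.0 and 107 in the same order of groups (0.55 ± 0.12, adjusted p = 0.554). On HFD, Gm37614, Zfp949 and Bckdhb were higher in Mlkl Adi-KO mice and passed, with log2 fold changes of 2.37 ± 0.31, 0.62 ± 0.05 and 0.30 ± 0.05. Of 63 genes tested within 10 Mb of Zfp949 without mouse 182, 7 were higher and 6 lower without overlap between the groups, beside 2.75% higher and 3.91% lower among all genes tested, and their median log2 fold change was 0.01. In fat, the library labelled WT 182 was at 1.55 FPKM for Gm11868, within reach of the Mlkl Adi-KO mice (0.837 to 1.28) and far from the other WT mice (0.0380 to 0.110), while its Zfp949 level of 3.52 was nearer to the WT (2.26 to 3.38) than to the Mlkl Adi-KO range (6.11 to 7.15).

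**Figure D2:**
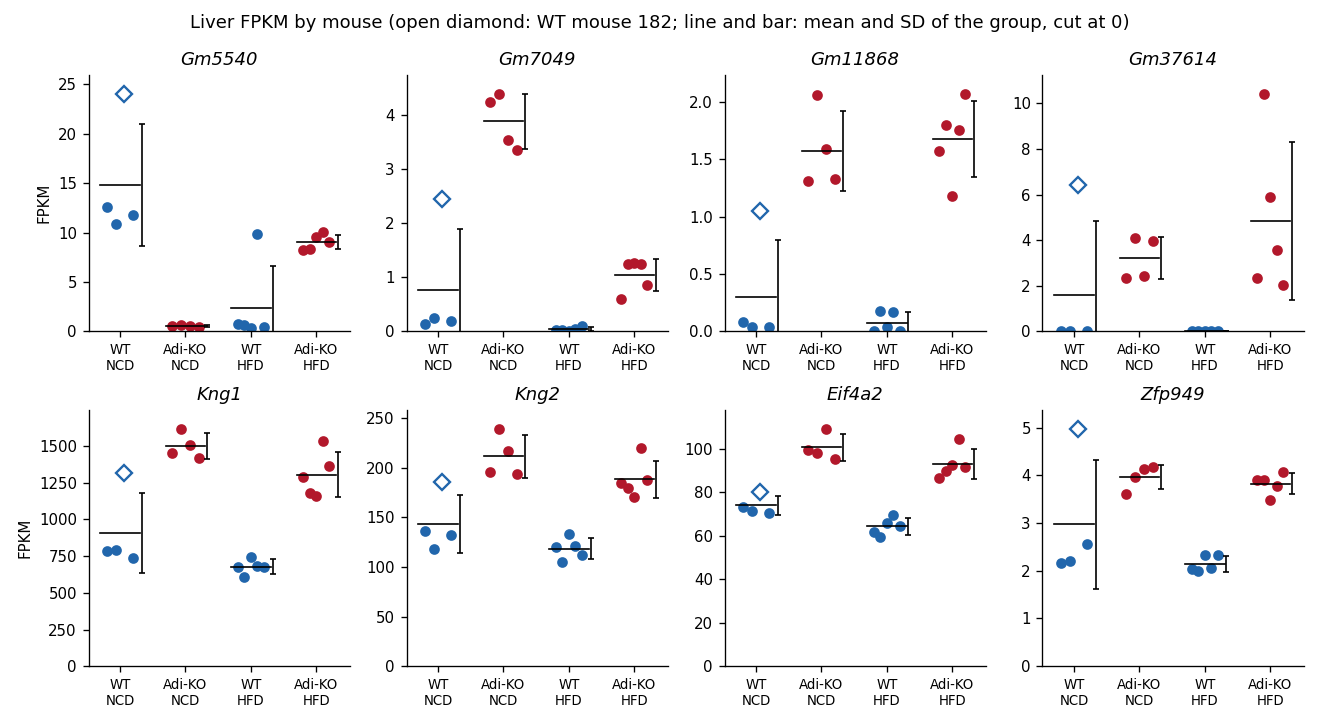
FPKM of 8 genes in each liver library on NCD and HFD, with the mean and SD of each group. The open diamond is WT mouse 182, which lies above the other 3 NCD WT mice in every panel, and Gm5540 has opposite orders on the 2 diets.

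Several genes around Adipoq had higher values in Mlkl Adi-KO liver. Adipoq encodes adiponectin and is at chr16:22965286-22976778, and it was itself near 0 in liver. Of 26 genes that start within 250 kb of it, 11 were tested, and 5 had an unadjusted p under 0.05 and were higher in Mlkl Adi-KO liver, beside 2.18% of all genes tested. None of the 11 was lower at that p. The median log2 fold change of the 11 was 0.17, or 0.27 without mouse 182, beside -0.00 and -0.01 over all genes.

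Kng1 encodes high-molecular-weight kininogen, the liver-made precursor of bradykinin, and starts 88.7 kb before Adipoq. It was at 1451, 1619, 1509 and 1420 FPKM in the Mlkl Adi-KO mice and at 787, 794, 1317 (mouse 182) and 735 in the WT mice. All 4 Mlkl Adi-KO mice were above all WT mice, and mouse 182 lay nearer to the Mlkl Adi-KO mice than to the other WT mice. Without mouse 182, Kng1 was higher by a log2 fold change of 0.96 ± 0.07 (limma adjusted p = 0.00476), and with it the value was 0.76 ± 0.18 (adjusted p = 0.905). On HFD the levels were 1160 to 1534 against 607 to 746 FPKM (0.94 ± 0.09, adjusted p = 0.00193).

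Kng2, the second kininogen gene of the mouse, starts 161 kb before Adipoq and was at 196, 239, 217 and 194 FPKM in Mlkl Adi-KO mice, against 137, 118, 185 (mouse 182) and 132. Eif4a2, an RNA helicase of translation initiation that starts 39.1 kb before Adipoq, was at 99.6, 98.1, 109 and 95.5 FPKM against 73.3, 71.5, 80.4 (mouse 182) and 70.7. Neither gene overlapped between the groups, and neither passed limma's threshold on NCD, with log2 fold changes of 0.71 ± 0.09 and 0.48 ± 0.06 without mouse 182 (adjusted p = 0.0813 for both). DESeq2 on recovered reads called Eif4a2 with all 8 mice (adjusted p = 0.000427), and both passed limma's threshold on HFD (0.67 ± 0.08 and 0.52 ± 0.06, adjusted p = 0.0121 for both). On the other side of Adipoq, 28.7 kb after it, lies the long noncoding RNA B630019A10Rik. It was at 9.64 to 13.2 FPKM in Mlkl Adi-KO mice and at 6.56 to 7.60 in WT mice, with mouse 182 the lowest (0.57 ± 0.10, limma adjusted p = 0.614). DESeq2 on recovered reads called this RNA with all 8 mice (adjusted p = 0.000304). Of the 11 genes tested within 250 kb of Adipoq, DESeq2 called 2 with all 8 mice and 4 without mouse 182, all higher. Rfc4, a subunit of the replication clamp loader, was at 2.20 to 2.96 FPKM against 1.74 to 2.02 in WT mice 165, 180 and 183 and 3.75 in mouse 182. The groups overlapped for Fetub and Hrg, which encode the liver-secreted proteins fetuin-B and histidine-rich glycoprotein, and for the sialyltransferase St6gal1. Log2 fold changes of these 3 genes without mouse 182 were -0.00, 0.02 and 0.09. The position of the Cre transgene in the genome was not tested.

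**Figure D3:**
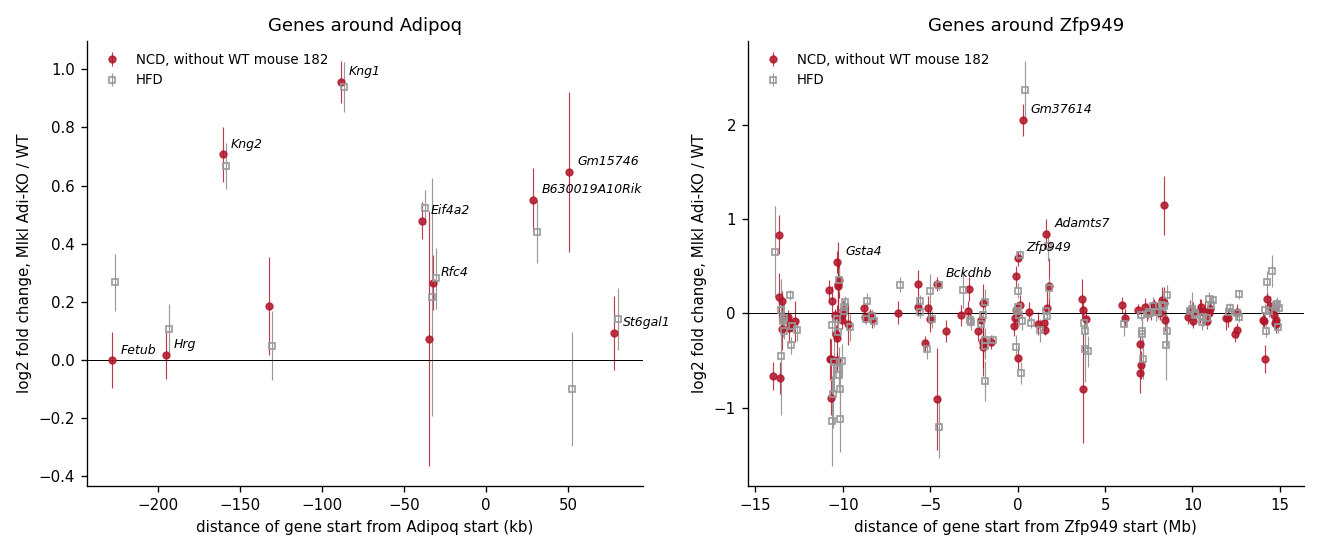
Log2 fold change (Mlkl Adi-KO over WT, with SE) of tested liver genes against the distance of their start from that of Adipoq (left, kb) and of Zfp949 (right, Mb), for NCD without WT mouse 182 (filled) and HFD (open). Kng2, Kng1, Eif4a2 and B630019A10Rik lie above 0 on both diets, while most genes around Zfp949 lie near 0.

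The other loci that passed without mouse 182 had low values. The long noncoding RNA 1700023H06Rik on chromosome 13 was at 0.634, 0.660, 0.492 and 0.398 FPKM in Mlkl Adi-KO mice and at 1.79, 1.94, 0.971 (mouse 182) and 2.11 in WT mice (-0.93 ± 0.10 without mouse 182, adjusted p = 0.0261). The microRNA precursor gene Mir7669 was listed at 0 in mouse 182 and in every Mlkl Adi-KO mouse, and had at most 2 reads in any library, so that no fold is given. Mir874 and Mir192, which the rule for naming genes also picked, had at most 3 and 7 reads in any library on NCD.

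No known protein-coding gene passed limma's threshold when all 8 mice were compared. The genes of lowest p whose groups did not overlap are given here as values that did not pass. In all, 369 genes (2.8%) did not overlap between the genotypes, 184 with higher and 185 with lower levels in the Mlkl Adi-KO group. For a gene without overlap, the 2-sided exact permutation p was 0.0286, the smallest that 4 against 4 mice allow. Labels given at random would on average leave that share of genes without overlap, and the 2.8% seen was near it. Without mouse 182 the smallest p was 0.0571, so that a single-gene permutation test could not reach 0.05 there.

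The genes with higher values in Mlkl Adi-KO liver are given first. Socs3, which is induced by cytokines and damps their receptors, was at 4.50, 4.61, 4.32 and 4.56 FPKM against 3.26, 3.03, 3.76 (mouse 182) and 3.43 (0.33 ± 0.07, unadjusted p = 0.00111, adjusted p = 0.836; 0.38 ± 0.07 without mouse 182). Il22ra1, a subunit of the interleukin-22 receptor on hepatocytes, was at 2.82 to 3.60 FPKM against 1.95 to 2.68 (0.42 ± 0.10, and 0.39 ± 0.10 without mouse 182). Kcp, a secreted modulator of BMP signaling, was at 1.38 to 1.57 FPKM against 0.753 to 1.11 (0.38 ± 0.09, and 0.34 ± 0.08 without mouse 182), and Tmem141 was at 13.5 to 17.2 against 10.2 to 12.1 (0.42 ± 0.09 and 0.40 ± 0.10). Cish, an inhibitor of growth hormone and cytokine signaling, is named as a member of the list of hepatokines and the growth hormone axis, and was at 5.09, 3.75, 1.57 and 2.31 FPKM against 1.10, 0.965, 0.571 (mouse 182) and 1.002 (1.06 ± 0.25, and 0.97 ± 0.27 without mouse 182). None of these genes passed limma's threshold with or without mouse 182. With all 8 mice, DESeq2 called Kcp (adjusted p = 0.0096) but not Socs3, Il22ra1 or Tmem141. Of the 33 tested genes of the list that holds Cish, it called 1, with a higher level, beside 0.159% of all genes. Which of the 33 that was is not given here.

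Onecut1, the hepatocyte nuclear factor HNF6, was at 5.43, 3.73, 3.19 and 2.28 FPKM in Mlkl Adi-KO mice against 1.54, 1.78, 1.18 (mouse 182) and 1.32 (0.89 ± 0.19, and 0.83 ± 0.21 without mouse 182). Its levels on HFD ranged from 2.51 to 29.1 FPKM in Mlkl Adi-KO and from 9.50 to 21.2 in WT mice. Adamts7, a secreted metalloprotease, was at 3.54 to 5.54 FPKM against 1.65 to 2.47 (0.80 ± 0.15), and Lsm5, a subunit of the LSm ring that binds the U6 RNA, was at 2.25 to 5.36 against 0.674 to 1.57 (1.26 ± 0.21). Chac1, a glutathione-degrading enzyme of the integrated stress response, was at 2.86 to 5.26 FPKM against 1.27 to 2.14 (0.71 ± 0.17). Without mouse 182 the log2 fold changes of Adamts7, Lsm5 and Chac1 were 0.84 ± 0.16, 1.24 ± 0.23 and 0.72 ± 0.19. Adjusted p-values of these 4 genes in limma lay between 0.603 and 0.905 with all 8 mice and between 0.365 and 0.657 without mouse 182, while DESeq2 called Onecut1, Adamts7 and Lsm5 with all 8 mice (adjusted p = 0.0012, 0.000427 and 0.00179).

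Among genes with the lower values, Bcl6, a transcriptional repressor that maintains the male pattern of liver genes and restrains lipid oxidation genes, was at 2.08, 3.89, 4.37 and 4.63 FPKM in Mlkl Adi-KO mice against 7.09, 12.9, 8.87 (mouse 182) and 6.77 (-1.06 ± 0.24, adjusted p = 0.836; -1.05 ± 0.26 without mouse 182). Gpt2, mitochondrial alanine aminotransferase, was at 96.2, 108, 99.8 and 103 FPKM against 124, 136, 120.03 (mouse 182) and 134 (-0.33 ± 0.07, and -0.37 ± 0.07 without mouse 182). Ahr, the receptor for dioxin-like compounds, was at 9.73 to 10.98 FPKM against 12.3 to 15.3 (-0.35 ± 0.08). Slc47a1, an exporter of organic cations, was at 32.9 to 37.6 FPKM against 40.9 to 46.0 (-0.31 ± 0.07). Hcls1, a cytoskeletal protein of blood cells, was at 1.99 to 2.86 FPKM against 3.13 to 5.03 (-0.67 ± 0.14). The log2 fold changes of Mlec, an endoplasmic reticulum lectin, and of Tns1, a focal adhesion protein, were -0.31 ± 0.07 and -0.35 ± 0.08. DESeq2 called Bcl6, Gpt2, Ahr, Hcls1, Mlec and Tns1 but not Slc47a1 (adjusted p = 0.194). Without mouse 182, the log2 fold changes of Ahr, Slc47a1, Hcls1, Mlec and Tns1 were -0.37, -0.27, -0.62, -0.34 and -0.40, none of the 7 genes passed limma's threshold, and DESeq2 no longer called Bcl6 (adjusted p = 0.137).

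**Figure D4:**
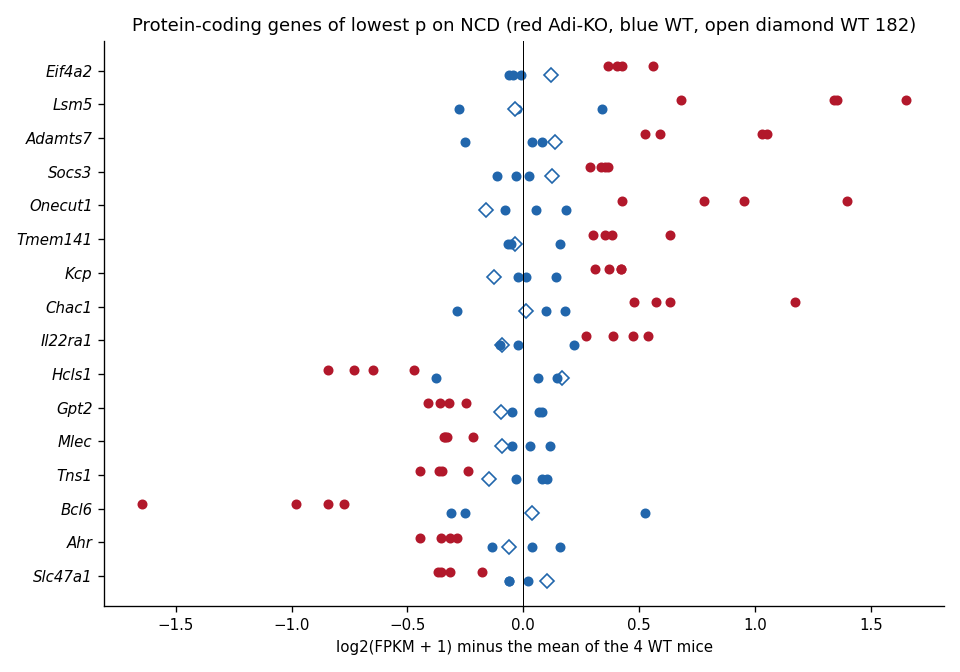
Difference of log2(FPKM + 1) from the mean of the 4 WT mice for the protein-coding genes of lowest p without overlap on NCD, 1 point per mouse. The open diamond is WT mouse 182, which lies among or close to the other WT mice for each gene, and none of these genes passed the limma threshold.

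Gene lists for liver functions were described by counts and medians. No member of these lists passed limma's threshold, with or without mouse 182. DESeq2 called 5 list genes with all 8 mice, beside 21 of 13193 genes in all (0.159%). Without mouse 182, when DESeq2 called 53 of 13070 genes (0.406%), it also called members of several lists. Among them were 1 triglyceride assembly gene and 1 glucose gene, both lower, and 3 higher and 1 lower of the list of genes the study names. That list also holds Zfp949, which the text of the study does not name.

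Of the 17 tested genes of the necroptosis list, Ripk1 and Birc2 did not overlap and were lower in Mlkl Adi-KO liver, beside 1.4% of all genes. Ripk1 was at 3.91, 3.33, 4.24 and 3.52 FPKM against 4.37, 4.403, 4.77 (mouse 182) and 4.61 (-0.22 ± 0.08, unadjusted p = 0.0177), and Birc2, an inhibitor of apoptosis that ubiquitinates RIPK1, was at 5.11 to 5.97 against 6.06 to 6.73. Ripk3, which phosphorylates MLKL, did not exceed 0.686 FPKM in any mouse and was not tested. The median over the list was -0.06, and -0.05 without mouse 182. Of the kinases that make inositol pyrophosphates, phosphate-rich signaling molecules, 8 were tested and none had an unadjusted p under 0.05. Ip6k2 was at 21.0, 26.8, 21.0 and 17.2 FPKM against 24.9, 25.5, 18.99 (mouse 182) and 25.8 on NCD, with overlap, and at 5.62 to 9.60 against 16.1 to 23.4 on HFD, where it passed (-1.14 ± 0.15, adjusted p = 0.0161). The difference between the diets did not pass (-0.996 ± 0.22, adjusted p = 0.172).

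No lipid synthesis gene passed limma's threshold, while DESeq2 called 1 gene of triglyceride assembly without mouse 182. The 25 cholesterol synthesis genes had a median log2 fold change of -0.24, and of -0.18 without mouse 182, in which 13 of the 25 were above the range of the other 7 mice, beside 2714 of 13193 genes in all. Srebf2, the transcription factor of the pathway, was at 9.94 to 13.6 FPKM against 13.2 to 15.1, with overlap (-0.24 ± 0.10, unadjusted p = 0.0391). The medians of the 20 de novo lipogenesis genes and the 27 genes of triglyceride assembly were -0.11 and -0.03, and without mouse 182 -0.16 and -0.14. Lpin1, a phosphatidate phosphatase of triglyceride synthesis, was at 54.7, 56.1, 62.3 and 59.6 FPKM in Mlkl Adi-KO mice and at 71.6, 76.6, 34.8 (mouse 182) and 90.6 in WT mice. The groups overlapped only through mouse 182. Without it the log2 fold change was -0.44 ± 0.09 (limma adjusted p = 0.42), and on HFD, where Lpin1 passed, it was -1.48 ± 0.20 (adjusted p = 0.0171).

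Glucose genes, of which Ppp1r3b, a glycogen-targeting phosphatase subunit, had the lowest p without mouse 182 (44.6 to 58.8 FPKM against 67.8 to 92.7, and 51.7 in mouse 182), had a median of -0.08, and 8 of 28 had an unadjusted p under 0.05 and were lower without mouse 182, beside 3.4% of all genes. With all 8 mice there were 4, beside 2.18% of all genes. Heat shock genes had a median of -0.22 with and without mouse 182, and 7 of 22 had an unadjusted p under 0.05, all lower, beside 2.18% of all genes, and 5 without mouse 182, beside 3.4%. Hspa1a, an inducible chaperone of the HSP70 family, was at 0.688, 0.349, 0.597 and 0.681 FPKM against 0.957, 1.35, 4.08 (mouse 182) and 3.003. Of 23 genes of the glucocorticoid response, 2 were higher and 4 lower at an unadjusted p under 0.05, beside 2.18% of all genes in each direction. Without mouse 182, 1 was higher and 3 lower at that p, beside 2.26% and 3.4%. With all 8 mice, 1 was higher and 2 lower without overlap, beside 1.39% and 1.4% of all genes. The higher one, named after its values were seen, was Hsd11b1, which regenerates active glucocorticoid, at 148 to 171 FPKM against 76.8 (mouse 182) to 145 (0.44 ± 0.18, and 0.25 ± 0.08 without mouse 182). The 2 lower ones, Zbtb16 and Fkbp5, were at 4.36 to 13.6 against 16.4 to 22.9 FPKM and at 3.22 to 6.90 against 7.27 to 10.3, with log2 fold changes of -1.10 ± 0.27 and -0.72 ± 0.21. The 31 acute phase genes, the 50 genes of xenobiotic metabolism and the 68 nuclear genes of the respiratory chain had medians of 0.01, 0.03 and 0.02, and 0.03, 0.03 and 0.01 without mouse 182. Fatty acid oxidation (38 genes), interferon-stimulated genes (34) and branched-chain amino acid catabolism (24) had medians of -0.07, -0.14 and -0.09, and -0.04, -0.12 and -0.13 without mouse 182.

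The medians of both lists of sex-biased genes changed sign without mouse 182. The 25 tested male-biased genes had a median log2 fold change of 0.51 with all 8 mice and of -0.16 without mouse 182, and the female-biased genes -0.25 (14 genes) and 0.09 (10 genes). Without mouse 182, 8 of the 25 male-biased genes had an unadjusted p under 0.05 and all 8 were lower in Mlkl Adi-KO mice, beside 3.4% of all genes. The list includes genes of major urinary proteins (Mup), a family in which 7 of 20 tested genes were lower at that p without mouse 182. Elovl3 was then at 235 to 293 FPKM against 310 to 414 (-0.43 ± 0.12, unadjusted p = 0.00794). Major urinary proteins are male-biased pheromone carriers encoded by near-identical copies, so single values of the family, and counts of its genes, are uncertain. Their summed level was 12511, 12141, 18779 and 15431 FPKM in Mlkl Adi-KO mice and 16240, 18131 and 18036 in the WT mice 165, 180 and 183, with overlap, and 924 in mouse 182. On HFD it was 23899 to 41247 against 16129 to 24031 FPKM. Mup1 alone was at 6.27, 2.54, 8.94 and 4.35 FPKM against 15.6, 17.8 and 22.2 without mouse 182 (-1.67 ± 0.32, adjusted p = 0.365), and at 0.0609 in mouse 182. Cyp17a1, a steroid hydroxylase counted as female-biased, was at 5.10 to 8.57 FPKM against 9.43 to 16.6, and 41.2 in mouse 182.

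**Figure D5:**
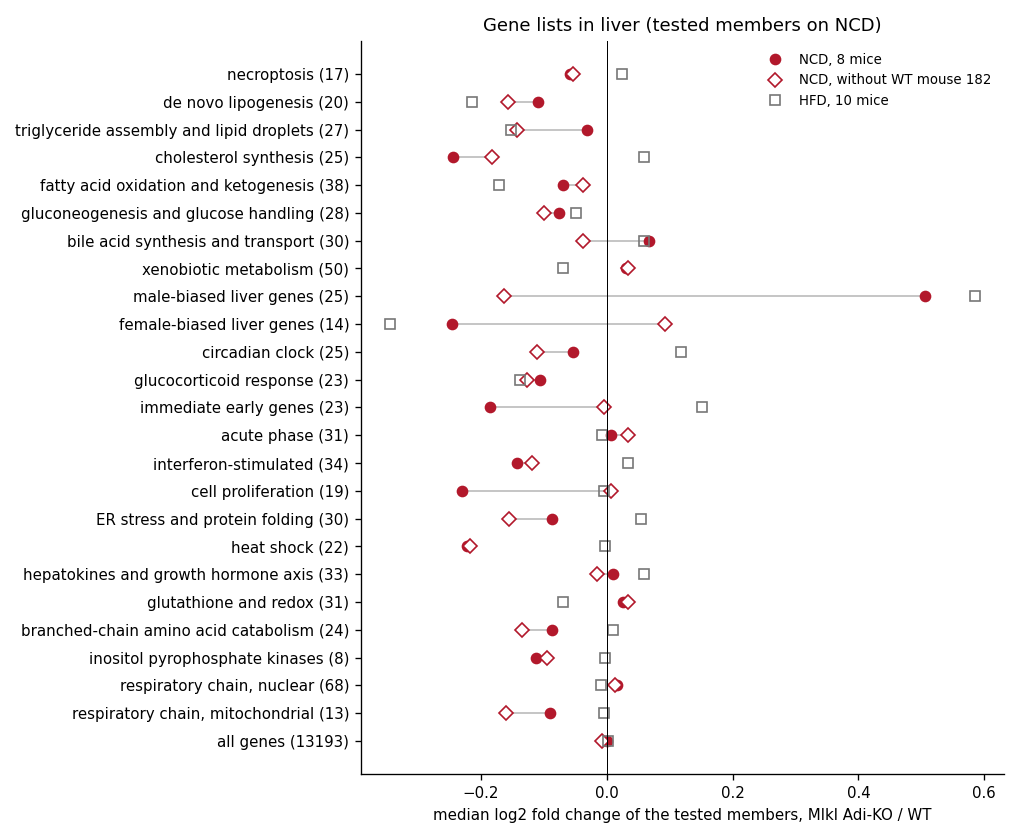
Median log2 fold change (Mlkl Adi-KO over WT) over the tested members of each gene list in liver, on NCD with 8 mice (filled circle), on NCD without WT mouse 182 (open diamond) and on HFD (square), with all tested genes in the bottom row. The medians of male-biased and female-biased genes change sign without mouse 182, and no member of the plotted lists passed the limma threshold on NCD.

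Markers of other cell types gave no list member past the threshold. The summed level of 15 Kupffer cell and macrophage markers was 146 to 179 FPKM in Mlkl Adi-KO mice, 126 to 159 in the WT mice 165, 180 and 183 and 209 in mouse 182. Clec4f, a lectin of Kupffer cells, was at 22.6 to 27.6 FPKM against 12.9 to 24.4. Stellate cell and fibroblast markers summed to 93.1 to 117 FPKM in Mlkl Adi-KO mice, 90.5 to 113 in the WT mice 165, 180 and 183 and 213 in mouse 182. Hepatocyte markers summed to 69079 to 75575, 64751 to 73386 and 70739, and 7 of 8 neutrophil markers were under 1 FPKM in every library. The exocrine pancreas enzyme Ctrb1 was at 30.1 FPKM in Mlkl Adi-KO mouse 166 and at no more than 0.055 in the other 7 mice, and the mesothelial markers summed to 17.5 FPKM in that mouse against 1.74 to 7.46 in the others. Their part in the results was not tested.

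The genotype effect was tested for a difference between the diets across 13248 genes, of which 2 passed (0.0151%), Gm5540 among them. Without mouse 182, Gm7049 passed as well, as 1 of 3 genes (0.0227%; -1.06 ± 0.15, adjusted p = 0.0131). The log2(FPKM + 1) scale shrinks folds at the low HFD levels of Gm7049, and the part of this in the difference was not tested. Of the reads on Gm7049 and Me1 together, 0.844% to 1.23% fell on the copy in Mlkl Adi-KO mice on NCD, and 0.688% to 1.17% on HFD. In WT mice the shares were 0.0254% to 0.0598% on NCD without mouse 182, and 0% to 0.0295% on HFD, the latter from 0 to 3 reads on the copy. HFD liver had 26 genes past the threshold (0.197%), of which 25 were tested on NCD without mouse 182. Of these, 10 did not overlap between the genotypes on NCD in the same direction and 1 in the opposite direction, beside 6.66% of all genes without overlap in either direction. The 10 were Kng1, Kng2, Eif4a2, Zfp949, Bckdhb, Gm11868, Gm7049, Gm37614, Lpin1 and C920006O11Rik. Each diet had its own WT mice, so these comparisons shared no samples.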

How the data were processed

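Polyadenylated RNA of liver and visWAT was sequenced in paired ends. The authors trimmed the reads, aligned them to GRCm39 (mm39) with HISAT2, counted them per gene with featureCounts (1.5.0-p3) and deposited FPKM per gene and library, beside raw counts per comparison. The authors' fold changes, p-values and pathway tables were not used, nor were 90 further columns of per-sample values. Whole reads were recovered from the deposited FPKM values (tolerance 0.05 reads) and entered edgeR (4.0.16) and DESeq2 (1.42.0) as alternatives.

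Genes with a mean of at least 0.5 FPKM over the mice compared were tested on log2(FPKM + 1) with limma (3.58.1, R 4.3.3; moderated test with trend, Benjamini-Hochberg adjustment). Counts were simulated for 4 against 4 mice (13171 genes), with the same variation between mice for every gene and no outlying mouse. There, limma recovered 16.4%, 88.1% and 100% of genes changed by 0.5, 1 and 2 on the log2 scale, and called 6 unchanged genes. Recovery at the spread of the real libraries, mouse 182 included, was not tested. The share of the sum of squares and single genes were tested by exact permutation. Copies were matched to transcripts with blastn (2.17.0).

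The members, gene lists and tests were chosen with earlier results of these data known. Named genes were Mlkl, the 10 genes per direction (5 without mouse 182) that passed with at least 1 FPKM in a group and no overlap, filled up by lowest p, the 3 members of lowest p per list, and genes starting within 250 kb of Adipoq. Predicted genes and Acsf2, Me1, Cyb5r4, Bckdhb, Clec4f, Ctrb1 and the major urinary proteins were named after their values were seen. Some genes are not reported here.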

Additional observations from a re-analysis of the deposited data

Results flagged for a closer look

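In 168 groups of 4 mice, 1 mouse lay far from the other 3 in 25, of which 17 were WT mouse 182, and chance alone gives some such groups. In WT mouse 182 these were Gm5540 at 24.0 FPKM, Gm7049 at 2.45, Gm37614 at 6.43, Kng1 at 1317, Zfp949 at 4.98, Rfc4 at 3.75, Bckdhb at 79.0, Gsta4 at 107 and Ip6k2 at 18.99. Its summed FPKM stood apart for the Mup genes at 924, bile acid genes at 3536, xenobiotic metabolism at 11970, proliferation at 120.02, and the markers of pericentral hepatocytes at 1995, of cholangiocytes at 182, of T and NK cells at 9.70 and of adipocytes at 512.

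Among the other mice, Tmem141 was at 12.1 FPKM in WT mouse 180 and Mlec at 32.9 in Mlkl Adi-KO mouse 166. In Mlkl Adi-KO mouse 166 the summed FPKM was 35.8 for pancreatic acinar markers, 17.5 for mesothelial markers and 619 for the list of genes the study names, which also holds Zfp949. Mlkl Adi-KO mouse 199 stood apart for lipogenesis at 6262 and for glutathione and redox genes at 12158, and mouse 197 for endothelial markers at 111.

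The genotype effect differed between NCD and HFD for Gm5540 by 5.42 on the log2(FPKM + 1) scale, and without mouse 182 also for Gm7049 by -1.06 (limma interaction). This scale shrinks folds at the low HFD levels of Gm7049.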

How the results depend on the processing

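The count of genes past the threshold on NCD was 1, and it was 3 with no filter on low values and 21 with DESeq2. Leaving out each mouse in turn gave 1 to 7, with 7 without mouse 182. Without mouse 182 the count was 7, and 53 with DESeq2, and leaving out a further mouse gave 2 to 7, with 2 without WT mouse 165. HFD had 26 genes, 7 with no filter and 262 with DESeq2. The interaction had 2 genes, 4 with a mean of at least 1 FPKM, 1 with edgeR, 63 with DESeq2, and 2 to 5 when 1 mouse was left out, with 5 without WT mouse 165. Genes without overlap numbered 369, 576 with no filter and 586 to 924 when 1 mouse was left out, where the test compares fewer mice. No list gene passed, against 5 with DESeq2. The cause of these shifts was not tested.

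Leaving out 1 mouse in turn moved log2 fold changes near 0 across 0 for 6 genes. The range was -0.44 (without mouse 182) to 0.0104 (without 183) for Lpin1, -0.30 (without 182) to 0.00608 (without 165) for Me1, -0.00105 (without 182) to 0.13 (without 179) for Fetub, -0.00579 (without 197) to 0.13 (without 165) for St6gal1, -0.52 (without 165) to 0.0728 (without 182) for Gm24616 and -0.00842 (without 179) to 0.19 (without 182) for Gm6493. The alternatives for HFD and for genes without overlap, and leaving out a further mouse beside 182, were chosen after seeing the data. On the TPM scale the HFD split was 12 higher and 15 lower, against 17 and 9. No paired analysis was possible because the replicate numbers are mouse numbers and no mouse is in both groups.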
